A study of Mus musculus with 15 samples.

Results

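RNA of a mouse blood cell line labelled HoxB was compared between 3 libraries from cells carrying the RUNX1-ETO fusion alone (RUNX1-ETO_ONLY, genotype RUNX1-ETO) and 3 libraries from cells carrying empty control vectors (EMPTY, genotype given as control vectors). These are 6 of the 15 libraries of the series, chosen by their group label, and all genes of the count table were described. The other groups carry the activating receptor allele CSF3R-T618I alone (CSF3R_ONLY) or both alleles, introduced in either order, and each group has 3 libraries. CSF3R_ONLY is described below only beside the fusion, in values and in a direct test. All 15 libraries of the 5 groups entered the same fit, so the other groups also bear on the standard errors and p-values. The labels do not say which vector, promoter or clone was used, nor whether the 3 libraries of a group came from separate cultures. Every p-value measures the spread between libraries within the 5 groups, which may be technical. Strand-specific mRNA libraries were made from DNase-treated total RNA.

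RUNX1-ETO joins the DNA-binding Runt domain of RUNX1, a transcription factor needed for blood stem cells and for myeloid maturation, to most of ETO, a corepressor encoded by RUNX1T1 that recruits histone deacetylases. The fusion occurs in acute myeloid leukaemia and is best known as a repressor of RUNX1 targets that blocks granulocyte maturation, although it also raises some genes. Granule proteases, lineage transcription factors and cytokine receptors are the classes of gene through which myeloid identity is usually read.

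Sequencing depth was similar in all 6 libraries, from 17007437 to 18178292 counts. Levels are given in CPM, counts scaled to library size with the factors of the trimmed mean of M values. They are not divided by transcript length, so they are compared mainly between libraries. Where levels are summed over genes, or set side by side between genes, they are shares of counts and also depend on transcript length. A value in CPM is a level, and a log2 fold change is the fitted difference RUNX1-ETO_ONLY minus EMPTY, given where shown with its standard error after ±. A mean level is given ± its SD over the 3 libraries of a group. A gene is said to have risen or fallen where the edgeR quasi-likelihood test gave a Benjamini-Hochberg adjusted p below 0.05 over the 13123 genes tested. Of these libraries, EMPTY 3 and RUNX1-ETO_ONLY 3 stood apart by transcript length. Genes with at least 6480 exonic bases deviated from their group mean by a median of -0.22 on the log2 scale in EMPTY 3 and -0.11 in RUNX1-ETO_ONLY 3, and genes with at most 2460 bases by 0.32 and 0.15, whereas the other 4 libraries deviated by 0.05 to 0.11 and by -0.17 to -0.06. Without these 2 libraries 2717 genes rose and 2373 fell, beside 2724 and 2393 with all 6. The genes were not all the same: of 5090 called without them, 4483 were among the 5117 called with all 6. Those 4483 had the same direction in both.

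The introduced sequence was first checked at the genes that it joins. Runx1t1, which encodes ETO, had no count in any EMPTY library and 439, 513 and 392 CPM in the fusion libraries, at least 2627-fold higher against a floor of 3 counts in each EMPTY library. Runx1 stood at 92.9, 96.4 and 81.5 CPM in the EMPTY libraries and 569, 559 and 513 CPM in the fusion libraries (log2 fold change 2.60 ± 0.10, adjusted p = 1.2e-11). The groups did not overlap at either gene, and both match the labels. The table does not separate reads of the introduced sequence from those of the cell's own Runx1. CBFB, the partner that stabilises RUNX proteins on DNA, rose slightly (Cbfb, log2 fold change 0.33 ± 0.07), and of the related family members Runx3 fell by 0.38 and the ETO paralog Cbfa2t3 by 0.66. Runx2 did not pass the test, at 113 ± 17.9 and 99.0 ± 9.96 CPM, but fell by 0.33 without EMPTY 3 (adjusted p = 0.00940). The corepressor genes Hdac1, Hdac3 and Sin3a did not pass it either, with log2 fold changes of 0.03, 0.01 and 0.11.

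The fusion alone came with a broad change that was close to balanced in direction. With it 2724 genes were higher, which is 20.8% of the genes tested, and 2393 were lower, which is 18.2%, and the median log2 fold change over all tested genes was 0.01. The libraries of the groups did not overlap at 43.8% of the genes. At least a 2-fold rise was measured for 1164 genes (8.87%) and at least a 2-fold fall for 882 (6.72%), while 382 genes rose and 131 fell at least 8-fold. A list of genes is read below against these shares. Because these are bulk libraries, fewer cells of a type and less RNA per cell cannot be told apart.

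**Figure D1:**
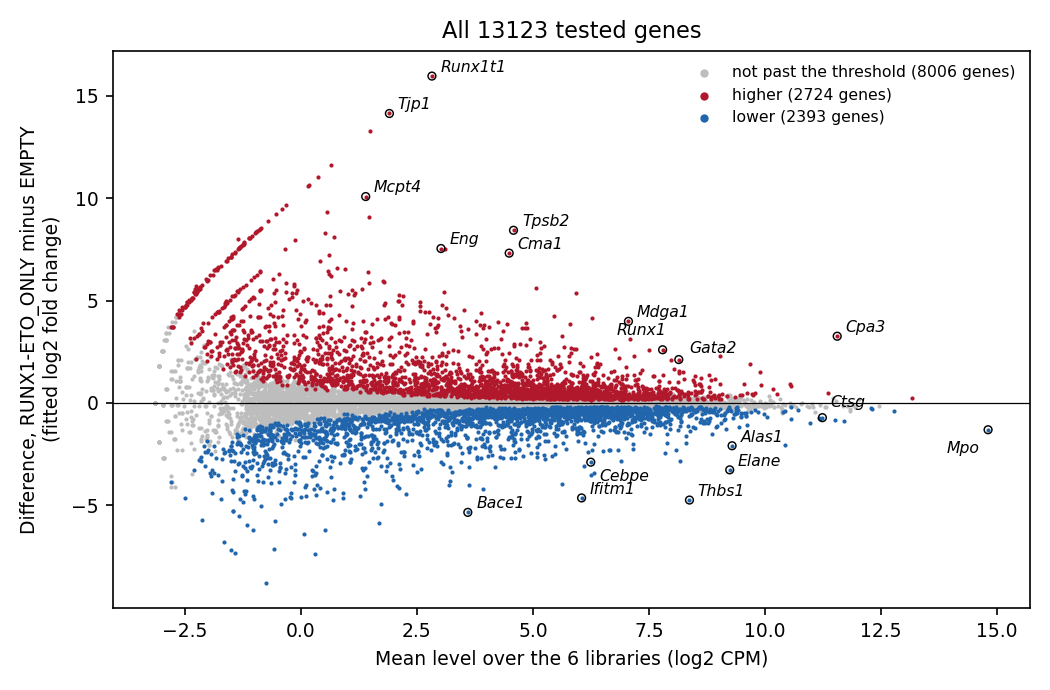
Log2 fold change with RUNX1-ETO against EMPTY (vertical axis) against mean log2 CPM over the 6 libraries (horizontal axis) for the 13123 genes tested, red higher (2724), blue lower (2393), grey not past the threshold (8006). The largest changes were rises of genes that were silent or nearly silent in the EMPTY libraries.

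A few genes behaved as switches: 31 had no count in any EMPTY library and at least 1 CPM in every fusion library, and 2 did the reverse. Beside Runx1t1 they included Tjp1, the tight junction scaffold ZO-1, with 149, 126 and 104 CPM in the fusion libraries, at least 740.4-fold higher. Etl4 had 67.3, 74.3 and 65.5 CPM and Adamts9, a secreted metalloprotease, with 24.7, 23.8 and 17.9 CPM, at least 405-fold and 129.8-fold higher. The actin nucleator Cobl (at least 66.4-fold), the chemokine gene Ccl7 (33.2-fold), the endothelial receptor gene Tie1 (29.4-fold), Bmp7 (14.9-fold), Vegfc (8.88-fold) and Gata3 (8.78-fold) were also on this side. The named switched-on genes are known from epithelial junctions, endothelium and blood, among other tissues. In the other direction H2-Q6, a non-classical MHC class I gene, had 2.31, 3.72 and 3.12 CPM in the EMPTY libraries and no count with the fusion, at least 19.7-fold lower, and the adhesion receptor gene Adgra2 was at least 7.32-fold lower.

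The clearest lineage change was a rise of mast cell genes. Of 35 tested members of the mast cell list, 27 rose and 2 fell, with a median log2 fold change of 3.64. Cpa3, which encodes the mast cell granule protease carboxypeptidase A3, stood at 840.2, 805 and 1312 CPM in the EMPTY libraries and 9229, 9086 and 9992 CPM in the fusion libraries (log2 fold change 3.26 ± 0.17, adjusted p = 5.02e-10). The tryptase gene Tpsb2 stood at 0.936, 1.0 and 1.86 CPM in the EMPTY libraries and 424, 411 and 469 CPM in the fusion libraries (log2 fold change 8.43 ± 0.20, adjusted p = 7.53e-14). The chymase gene Cma1 was at 1.27, 1.33 and 2.76 CPM in the EMPTY libraries and 269, 259 and 321 CPM in the fusion libraries (log2 fold change 7.32 ± 0.21, adjusted p = 5.84e-13). All 3 were higher in every fusion library than in any EMPTY library, and Tpsb2 and Cma1 were below 3 CPM in each EMPTY library.

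The other mast cell products rose with the proteases. For heparin and amine storage, Ndst2, which sulphates heparin, had a log2 fold change of 1.90 ± 0.14, the vesicular monoamine transporter Slc18a2 3.64 ± 0.10, and histidine decarboxylase (Hdc), the histamine-forming enzyme, 1.90 ± 0.07. Hdc stood at 429, 428 and 407 CPM in the EMPTY libraries and 1598, 1522 and 1591 CPM in the fusion libraries, without overlap. For lipid mediators, leukotriene C4 synthase (Ltc4s, 3.8), haematopoietic prostaglandin D synthase (Hpgds, 1.73) and 5-lipoxygenase (Alox5, 0.51) rose. Rab27b, a GTPase of granule exocytosis, rose from a mean of 0.129 ± 0.115 to 13.6 ± 1.36 CPM. Receptors moved both ways, with Kit and Siglecf lower. Il1rl1, the receptor for interleukin-33, stood at 9.14, 12.6 and 7.02 CPM in the EMPTY libraries and 449, 412 and 319 CPM in the fusion libraries (log2 fold change 5.36 ± 0.19, adjusted p = 5.17e-12), and the adenosine receptor gene Adora3 and the CD200 receptor family gene Cd200r3 had log2 fold changes of 4.97 and 3.99.

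The high-affinity IgE receptor was unequal between its chains. Its beta chain gene Ms4a2 stood at 7.82, 6.94 and 8.10 CPM in the EMPTY libraries and 98.1, 99.8 and 93.3 CPM in the fusion libraries (log2 fold change 3.67 ± 0.07, adjusted p = 3.57e-14). Its alpha chain gene Fcer1a had no count in the EMPTY libraries and only 0.408, 0.411 and 0.524 CPM with the fusion, at least 2.62-fold higher, and the shared gamma chain gene Fcer1g did not pass the test, with a log2 fold change of -0.46 ± 0.19, though its adjusted p was 0.0204 without EMPTY 1, 0.0248 without EMPTY 2 and 0.0420 with the replicate number as a block. The alpha chain was therefore near the detection floor in all 6 libraries while the beta chain was not. The receptor tyrosine kinase gene Kit, on which mast cells depend, fell, from 333, 348 and 312 CPM to 192, 186 and 182 CPM (log2 fold change -0.83 ± 0.08, adjusted p = 4.59e-07), and Siglecf was the other member that fell (-0.77 ± 0.08). Gata2, a transcription factor of mast cells and stem cells, rose from 135, 146 and 126 CPM to 624, 595 and 550.2 CPM (log2 fold change 2.12 ± 0.09, adjusted p = 1.98e-11), and Mitf, another mast cell factor, was called at 0.58 ± 0.22 (adjusted p = 0.0475) although its libraries overlapped between the groups, and its adjusted p was 0.0504 to 0.219 without EMPTY 2, EMPTY 3, RUNX1-ETO_ONLY 1 or RUNX1-ETO_ONLY 3.

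Of 16 basophil and eosinophil genes tested, 56.2% were higher and 37.5% lower, beside 20.8% and 18.2% of all genes. These were 9 and 6 genes, with basophil proteases and cytokines among the higher and eosinophil granule genes among the lower. The basophil protease gene Mcpt8 stood at 79.1, 83.7 and 119 CPM in the EMPTY libraries and 273, 259 and 328 CPM in the fusion libraries (log2 fold change 1.61 ± 0.15, adjusted p = 3.1e-07). Prss34, another basophil protease gene, was at 41.6, 39.2 and 60.4 CPM in the EMPTY libraries and 393, 371 and 462 CPM in the fusion libraries (log2 fold change 3.12 ± 0.15, adjusted p = 1.57e-10). The libraries of the groups overlapped at neither. Il4 had a log2 fold change of 4.2 ± 0.44, and Il13, at 0, 0 and 0.0600 CPM and 4.95, 4.83 and 4.35 CPM, a count ratio of 249 (95% counting interval 44.3 to 9866). Its single EMPTY count was in EMPTY 3, and its fitted log2 fold change was 7.5 with that library and 9.39 without it. The eosinophil granule genes moved the other way: major basic protein (Prg2) stood at 19.3, 20.3 and 31.7 CPM in the EMPTY libraries and 2.55, 3.75 and 2.62 CPM in the fusion libraries (log2 fold change -2.99 ± 0.20, adjusted p = 9.44e-09). Eosinophil peroxidase (Epx) was at 4.24, 3.56 and 2.76 CPM in the EMPTY libraries and 0.459, 0.617 and 0.681 CPM in the fusion libraries (log2 fold change -2.58 ± 0.26, adjusted p = 8.67e-07). Prg2 and Epx were lower in every fusion library than in any EMPTY library. The receptor subunits that these lineages share were also higher: Il5ra had a log2 fold change of 2.32, Il3ra 0.61, Csf2rb 0.88 and Csf2rb2 2.57, whereas Csf2ra, the alpha chain for GM-CSF, fell by 1.37 ± 0.17. Csf2rb and Csf2rb2 are close paralogs, so reads may be split between them.

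**Figure D2:**
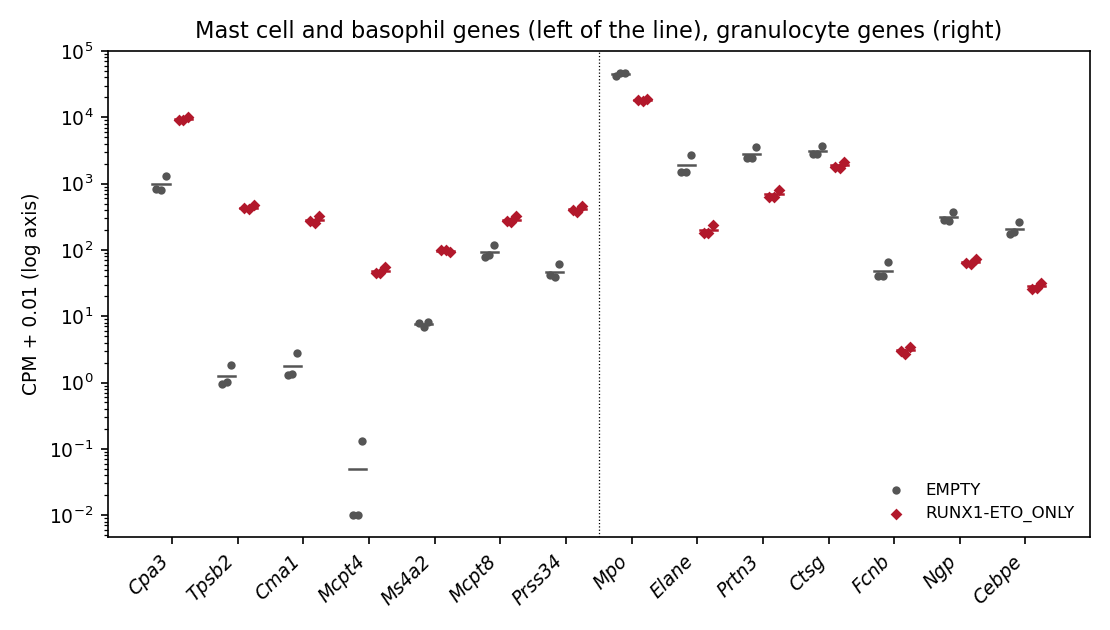
Level of 7 mast cell and basophil genes and 7 granule and neutrophil genes in each of the 6 libraries, in CPM plus 0.01 on a log axis; each point is a library and each short line a group mean. Every gene of the first set was higher in the 3 fusion libraries, and every gene of the second set was lower. The genes shown are a selection. It leaves out the mast cell gene Kit, which fell, and neutrophil genes that rose or did not pass the test, such as Cxcr2 and Ltf.

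Much of this pattern could be read within a single locus. The mast cell chymases, the basophil protease Mcpt8, cathepsin G and granzyme B are neighbours on chromosome 14, and cathepsin G (Ctsg) is a protease of neutrophil primary granules. Promoter windows of 250 bases before the start of transcription are shown for 4 of them because they lie on the same strand of the same cluster and their transcripts moved in opposite directions, and that of Ms4a2 because it rose with them on another chromosome. They are RefSeq sequences on GRCm38.p6, written 5′ to 3′ on the minus strand of the genome. Capitals mark the RUNX core TGTGGT (or ACCACA, the same on the other strand), the GATA core AGATAA (or TTATCT) and the C/EBP core TTGCNNAA, each searched on both strands.
Mcpt4, chr14:56062311-56062560: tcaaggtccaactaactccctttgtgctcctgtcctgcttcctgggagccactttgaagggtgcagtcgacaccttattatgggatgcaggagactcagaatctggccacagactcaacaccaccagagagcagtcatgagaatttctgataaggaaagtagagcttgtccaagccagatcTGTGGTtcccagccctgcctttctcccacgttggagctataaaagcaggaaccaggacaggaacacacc
Cma1, chr14:55944676-55944925: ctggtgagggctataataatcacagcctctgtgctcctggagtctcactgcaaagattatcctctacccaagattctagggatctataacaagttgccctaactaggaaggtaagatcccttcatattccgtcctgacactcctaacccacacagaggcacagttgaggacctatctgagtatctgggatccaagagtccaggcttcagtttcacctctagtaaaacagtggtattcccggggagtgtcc
Mcpt8, chr14:56085198-56085447: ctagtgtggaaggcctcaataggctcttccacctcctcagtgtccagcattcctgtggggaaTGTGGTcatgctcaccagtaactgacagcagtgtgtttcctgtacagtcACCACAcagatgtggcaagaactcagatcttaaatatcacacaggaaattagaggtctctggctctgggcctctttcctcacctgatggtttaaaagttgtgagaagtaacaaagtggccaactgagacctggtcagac
Ctsg, chr14:56102575-56102824: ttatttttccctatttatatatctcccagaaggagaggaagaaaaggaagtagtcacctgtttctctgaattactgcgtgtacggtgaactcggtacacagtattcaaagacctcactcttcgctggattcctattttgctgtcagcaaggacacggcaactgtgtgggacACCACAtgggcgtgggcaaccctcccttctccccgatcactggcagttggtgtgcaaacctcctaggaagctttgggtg
Ms4a2, chr19:11623720-11623969: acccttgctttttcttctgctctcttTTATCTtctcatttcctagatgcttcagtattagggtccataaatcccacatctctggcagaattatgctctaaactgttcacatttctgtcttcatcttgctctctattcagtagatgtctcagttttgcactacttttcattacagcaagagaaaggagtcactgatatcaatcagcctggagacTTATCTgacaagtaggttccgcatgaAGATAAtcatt
A RUNX core was found once in the Mcpt4 window, 2 times in that of Mcpt8 and once in that of Ctsg, and in neither of those of Cma1 and Ms4a2, and the Ms4a2 window held 3 GATA cores. The RUNX core was present in 14% of all 32851 promoter windows of this length and in 11.1% of the 12468 windows of tested genes. Among genes that rose at least 8-fold it was in 13.6% of windows and among those that fell at least 8-fold in 15.9%. The GATA core was in 9.99% of all promoter windows and in 6.23% of the windows of tested genes. It was in 7.02% for all rises and 6.21% for all falls, and in 13.6% and 9.52% for those of at least 8-fold. The C/EBP core was in 9.56% of all promoter windows and in 7.83% of those of tested genes. For rises and falls of at least 8-fold it was in 8.17% and 11.1%. These shares are descriptions of letters in a window and were not tested, and a match is not evidence of binding.

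Within the cluster the direction changed between neighbours. The gene coordinates are those of GENCODE M21 on the same mouse assembly. Mcpt4, a connective tissue mast cell chymase (chr14:56059629-56062313), had 0, 0 and 0.120 CPM in the EMPTY libraries and 44.4, 45.5 and 55.8 CPM with the fusion, a count ratio of 1281 (95% counting interval 354 to 10581), and a fitted log2 fold change of 10.08, which was 12.76 without EMPTY 3. Mcpt8 (chr14:56082166-56085273), whose values are given above, lies 17.7 kb from Ctsg. Ctsg itself (chr14:56099881-56102574) fell, from 2804, 2798 and 3734 CPM to 1800.4, 1747 and 2137 CPM (log2 fold change -0.72 ± 0.12, adjusted p = 0.000252). All 3 fusion libraries were lower than all EMPTY libraries at Ctsg and higher at Mcpt8 and Mcpt4. Cma1 (chr14:55941451-55944675) lies 158.4 kb away, and between them Mcpt2 had a log2 fold change of 4.0 ± 0.36, which was 5.58 without EMPTY 3, and Cma2 was at least 8.19-fold higher. Gzmb, 159 kb on the other side of Ctsg, and Mcpt1 did not pass the test, at means of 0.338 ± 0.539 and 0.119 ± 0.107 CPM and of 0.893 ± 1.36 and 0.310 ± 0.189 CPM. These proteases are close paralogs, so reads may be split between them and the low values are uncertain.

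**Figure D3:**
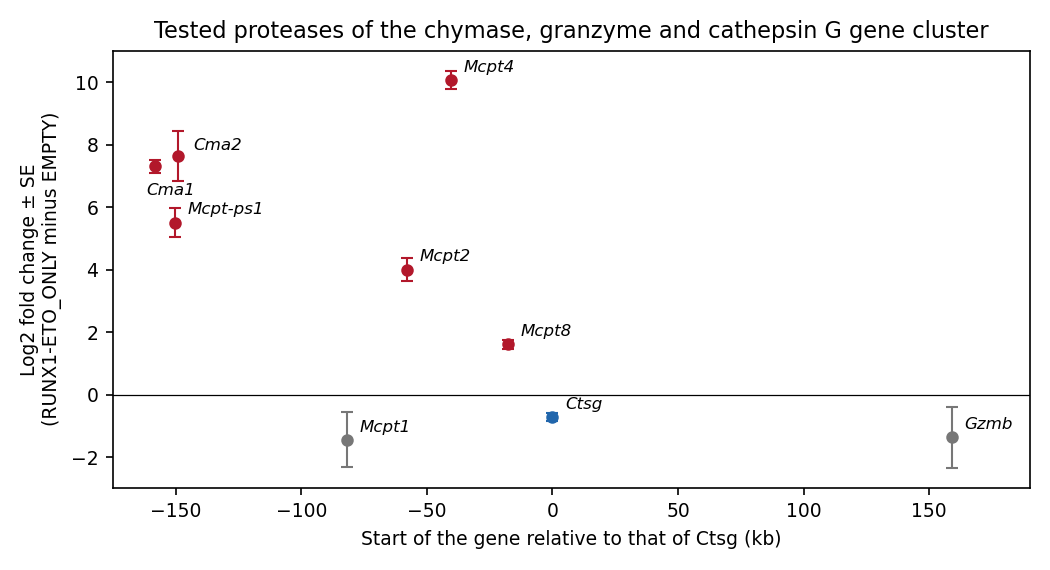
Log2 fold change (points, bars are the standard error) of the proteases of the chromosome 14 cluster against the distance of their start from that of Ctsg, in kb; red higher, blue lower, grey not past the threshold. Cma1, Mcpt4, Mcpt8 and the other chymases on one side of Ctsg were higher, with Mcpt1 not past the threshold, while Ctsg was lower.

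The tryptase genes, which form another protease cluster on chromosome 17, moved together. Tpsb2 (chr17:25366305-25369098) is described above, and its neighbour Tpsg1, a membrane-anchored tryptase (chr17:25369273-25374442), stood at 1.21, 1.17 and 1.86 CPM in the EMPTY libraries and 29.3, 31.4 and 31.3 CPM in the fusion libraries (log2 fold change 4.44 ± 0.14, adjusted p = 1.18e-12). Tpsab1 (chr17:25343245-25345562) had 0, 0.0556 and 0.0600 CPM in the EMPTY libraries and 11.7, 14.8 and 15.5 CPM with the fusion, a count ratio of 370.2 (95% counting interval 102 to 3062). Prss28 rose from a mean of 0.266 ± 0.0410 to 2.10 ± 0.453 CPM (log2 fold change 2.95), and Prss34, also of this cluster, is described above. All 5 tested proteases of the cluster were higher. Tpsab1 and Tpsb2 are near copies, and their reads may be split.

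Primary granule genes of the neutrophil line fell. Of 16 tested members of the primary granule list 11 fell and 3 rose, and their median log2 fold change was -0.87. The list also holds genes whose products are not granule proteins, such as the surface lectin gene Clec12a and the glutathione transferase gene Gstm1. Myeloperoxidase (Mpo), the main peroxidase of these granules, stood at 41973, 46797 and 46459 CPM in the EMPTY libraries and 18468, 17618 and 18618 CPM in the fusion libraries (log2 fold change -1.31 ± 0.09, adjusted p = 1.06e-08). Neutrophil elastase (Elane) was at 1509.5, 1517 and 2729 CPM in the EMPTY libraries and 183, 182 and 235 CPM in the fusion libraries (log2 fold change -3.26 ± 0.21, adjusted p = 3.97e-09). Proteinase 3 (Prtn3), the neighbour of Elane on chromosome 10, had a log2 fold change of -2.03 ± 0.14, and the lectin gene Fcnb, which encodes ficolin B, -3.99 ± 0.22. Mpo thus fell by a smaller factor than Elane, Prtn3 or Fcnb. None of these genes overlapped between the groups. Prss57 (-2.32), the inhibitory lectin gene Clec12a (-3.06), Gstm1 (-2.28), Nkg7 (-1.02) and Ms4a3 (-0.62) fell as well. The 3 members that rose did so by little: Serpinb1a, an inhibitor of these proteases, by 0.46, cathepsin C (Ctsc), which activates them, by 0.40, and the granule proteoglycan Srgn by 0.46 (adjusted p = 0.0346, and 0.0597 to 0.135 when any library other than EMPTY 3 was left out). Lysozyme (Lyz2) did not pass the test, at 127 ± 13.6 and 136 ± 11.8 CPM.

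The later neutrophil genes were divided: of 37 tested 13 fell, 9 rose and 15 did not pass, with a median log2 fold change of -0.30. Cebpe, the transcription factor of secondary granule formation, stood at 175, 188 and 263 CPM in the EMPTY libraries and 25.7, 26.5 and 32.1 CPM in the fusion libraries (log2 fold change -2.89 ± 0.14, adjusted p = 1.57e-10). The granule protein gene Ngp stood at 279, 270.0 and 379 CPM in the EMPTY libraries and 64.1, 61.5 and 72.5 CPM in the fusion libraries (log2 fold change -2.23 ± 0.15, adjusted p = 7.43e-09), and haptoglobin (Hp) and the leukotriene B4 receptor gene Ltb4r1 had log2 fold changes of -2.30 and -2.58. Cebpe and Ngp were lower in all fusion libraries. Other genes of mature neutrophils rose from low levels: the chemokine receptor gene Cxcr2 stood at 21.4, 20.7 and 17.1 CPM in the EMPTY libraries and 139, 133 and 124 CPM in the fusion libraries (log2 fold change 2.74 ± 0.09, adjusted p = 1.63e-12), and Retnlg, Chil3, the collagenase gene Mmp8 and the deiminase gene Padi4 had log2 fold changes of 2.97, 2.9, 1.90 and 1.03. The formyl peptide receptor gene Fpr1 was at least 5.75-fold higher. The secondary granule genes Ltf and Lcn2 did not pass the test, with log2 fold changes of 0.16 and -0.17. The G-CSF receptor gene Csf3r rose slightly, from 422, 465 and 373 CPM to 507, 536 and 530.4 CPM (log2 fold change 0.32 ± 0.08, adjusted p = 0.00647, and 0.0838 when the fit used only the groups compared).

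Monocyte and macrophage genes fell more often than they rose, with 13 lower, 7 higher and 4 not past among 24 tested and a median log2 fold change of -0.67; 4 were higher with the replicate number as a block, or without it, when the fit used only the groups compared. Factor XIII A (F13a1), a transglutaminase of monocytes, stood at 875, 827 and 629.9 CPM in the EMPTY libraries and 116, 108 and 98.2 CPM in the fusion libraries (log2 fold change -2.85 ± 0.11, adjusted p = 1.55e-11). Galectin 3 (Lgals3) was at 24.3, 24.7 and 40 CPM in the EMPTY libraries and 3.88, 3.39 and 4.87 CPM in the fusion libraries (log2 fold change -2.87 ± 0.19, adjusted p = 4.97e-09). The endotoxin co-receptor gene Cd14 stood at 38.0, 38.6 and 46.7 CPM in the EMPTY libraries and 11.9, 12.8 and 13.9 CPM in the fusion libraries (log2 fold change -1.67 ± 0.11, adjusted p = 8.46e-09). All 3 were lower in every fusion library. The Fc receptor genes Fcgr1 (-1.5), Fcgr3 (-0.89) and Fcgr4 (-1.96), the lysosomal marker Cd68 (-1.42), the chemokine receptor gene Ccr2 (-0.99) and Ly6c2 (-0.77) fell too. Against this, Irf8, a transcription factor of monocyte and dendritic cell development, rose from 9.75, 9.89 and 10.3 CPM to 22.2, 24.1 and 24.7 CPM (log2 fold change 1.25 ± 0.10, adjusted p = 9.32e-08), and Ms4a6c, Ms4a6d and Adgre1, which encodes F4/80, had log2 fold changes of 2.70, 1.97 and 1.77. The M-CSF receptor gene Csf1r did not pass, at 7.62 ± 0.451 and 9.03 ± 0.627 CPM. Of 19 dendritic cell and MHC class II genes 8 could be tested, of which 4 were higher and 2 lower. Only 2 were higher without EMPTY 1, without EMPTY 2 or without RUNX1-ETO_ONLY 1. Of the antigen presentation genes the invariant chain Cd74 rose (log2 fold change 4.92 ± 0.46, adjusted p = 3.65e-07) while the class II beta chain gene H2-Ab1 fell by 2.0.

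Stem cell, erythroid and megakaryocyte genes shifted upward in part. Of 30 tested stem and progenitor genes 20 rose and 6 fell (median 0.88), and of 26 erythroid and megakaryocyte genes 13 rose and 3 fell (median 0.90). Cd34, a surface marker of progenitors, stood at 248, 239 and 220.0 CPM in the EMPTY libraries and 1199, 1129 and 1141 CPM in the fusion libraries (log2 fold change 2.29 ± 0.07, adjusted p = 1.42e-12). Endoglin (Eng), a TGF-beta co-receptor of endothelium and stem cells, was at 0.771, 0.500 and 0.360 CPM in the EMPTY libraries and 102, 101 and 108 CPM in the fusion libraries (log2 fold change 7.54 ± 0.16, adjusted p = 3.57e-14). The thrombin receptor gene F2r stood at 0.661, 0.333 and 0.780 CPM in the EMPTY libraries and 122, 111 and 97.5 CPM in the fusion libraries (log2 fold change 7.54 ± 0.16, adjusted p = 3.57e-14). The groups did not overlap at any of these, and Eng and F2r were among the 5 largest rises of named genes whose log2 CPM averaged 3 or more over the 6 libraries. Ly6a, which encodes Sca-1, Procr, the endothelial protein C receptor, and Angpt1 had log2 fold changes of 5.93, 3.70 and 2.33. The integrin gene Itga2b stood at 77.1, 77.1 and 73.6 CPM in the EMPTY libraries and 169, 169.9 and 149.9 CPM in the fusion libraries (log2 fold change 1.10 ± 0.07, adjusted p = 2.42e-09). The platelet factor gene Pf4 and the erythropoietin receptor gene Epor rose (1.89 and 1.98), and Gp9, a subunit of the platelet receptor for von Willebrand factor, fell by 2.49. Red cell products were near 0: the summed level of 5 erythroid markers, among them the globins Hbb-bs and Hba-a1, was 0.72 to 1.56 CPM in the EMPTY and 0.36 to 1.0 CPM in the fusion libraries.

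The defining markers of epithelial and stromal cells were at or near 0. The summed level of 4 lymphoid markers was 2.33 to 3.24 CPM in the EMPTY and 1.68 to 2.57 CPM in the fusion libraries, nearly all of it Lck, and Cd3e had no count. The 4 stromal and endothelial markers summed to at most 0.333 CPM, with Col1a2 and Pdgfra at 0, and the 3 epithelial markers to at most 0.102 CPM, with Krt8 and Krt18 at 0, in any of the 6 libraries. A wider list of 16 stromal and endothelial genes, of which 4 could be tested, summed to 299 to 327 CPM in the EMPTY and 613 to 663 CPM in the fusion libraries. Nearly all of that was Pecam1, an adhesion molecule that blood cells also carry, and the PDGF receptor gene Pdgfrb, which rose by 0.94 and 1.77, while the actin gene Acta2 fell by 0.96. For the myeloid classes the range over the EMPTY libraries is given first and that over the fusion libraries after it. The 7 mast cell markers, of which 6 rose and Kit fell, summed to 1163 to 1637 and 10087 to 11113 CPM, most of it Cpa3. The 2 basophil markers, both of which rose, summed to 121 to 179 and 631 to 789 CPM, and the 4 eosinophil markers, of which Prg2 and Epx fell and Il5ra rose, to 25.4 to 35.7 and 11.4 to 13.9 CPM. The 7 neutrophil markers summed to 43861 to 49737 and 17945 to 19043 CPM, nearly all of it Mpo. Of these markers Mpo, Elane and Ngp fell, and Ltf, Camp, S100a8 and Ly6g did not pass the test. The 5 monocyte markers, of which Ly6c2, Cd14 and F13a1 fell and Irf8 rose, summed to 914 to 1073 and 248 to 253 CPM. Whether a change in the mixture of cells has a part in the results was not tested.

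Among transcription factors Gata1 and Gata2 rose, as did Gata3 from no count, while Cebpa, Cebpb, Cebpd and Cebpe fell. Gata1, the erythroid, mast cell and megakaryocyte factor, stood at 2.70, 2.94 and 4.68 CPM in the EMPTY libraries and 40.8, 39.97 and 45.5 CPM in the fusion libraries (log2 fold change 3.62 ± 0.15, adjusted p = 1.84e-11). Gata2 is given above, and Gata3 went from no count to 1.53, 1.13 and 1.83 CPM. Gata3 could be tested only through libraries of cells carrying the fusion, so it could only rise. The other 3 GATA genes had no count. The GATA cofactors and partners Zfpm1, Tal1 and Ldb1 had log2 fold changes of 1.19, 1.75 and 0.60. Gfi1b, a repressor needed by the erythroid and megakaryocyte lines, stood at 1.38, 1.5 and 1.68 CPM in the EMPTY libraries and 40.9, 41.0 and 42.7 CPM in the fusion libraries (log2 fold change 4.77 ± 0.14, adjusted p = 4.79e-13). Its paralog Gfi1, a granulocyte factor, fell, from 195, 200.2 and 179.6 CPM to 113, 117 and 115 CPM (log2 fold change -0.74 ± 0.06, adjusted p = 1.43e-07). The paralogs therefore moved in opposite directions in all 6 libraries.

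Of the granulocyte and monocyte regulators, Cebpa stood at 735, 766 and 732 CPM in the EMPTY libraries and 392, 362 and 375 CPM in the fusion libraries (log2 fold change -0.98 ± 0.07, adjusted p = 1.94e-08). Spi1, which encodes PU.1, was at 470.1, 458 and 757 CPM in the EMPTY libraries and 219.6, 223 and 273 CPM in the fusion libraries (log2 fold change -1.23 ± 0.16, adjusted p = 1.18e-05). Cebpb and Cebpd fell by 1.45 and 1.60, so that with Cebpe all 5 of these regulators were lower in every fusion library. The early response factors Egr1 and Egr2 rose (3.86 ± 0.11 and 1.5 ± 0.30). Over the list of 58 myeloid factors 25 rose and 15 fell, with a median of 0.06, and over 47 erythroid, mast and stem cell factors 26 rose and 3 fell, with a median of 0.56; without EMPTY 3 the number that fell was 5.

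The homeobox genes separated by family. All 6 tested HOX genes fell and 4 of 6 MEIS and PBX genes rose. Hoxb8, a factor that can hold myeloid progenitors in an immature state, stood at 324, 374 and 179.6 CPM in the EMPTY libraries and 130.2, 142 and 119.6 CPM in the fusion libraries (log2 fold change -1.17 ± 0.21, adjusted p = 0.000331), and the labels do not say whether the line carries an introduced HOX gene. Meis1, a HOX cofactor, stood at 4.63, 5.0 and 4.98 CPM in the EMPTY libraries and 11.9, 12.9 and 12.3 CPM in the fusion libraries (log2 fold change 1.34 ± 0.11, adjusted p = 6.47e-08). Hoxb4 fell by 0.59 and Hoxa9 from 0.606, 0.778 and 0.959 CPM to no count, at least 5.05-fold lower. Hoxb8 and Meis1 did not overlap between the groups and moved in opposite directions. Further factors of lymphoid and stem cells moved strongly both ways: Ets1, Bcl11a, Ikzf3 and Mef2c fell by 3.53, 3.24, 2.55 and 1.91, while Ikzf2, Hlf, Foxo1, Sox4 and Sox6 rose by 1.87, 1.01, 2.61, 1.95 and 3.42. Myb fell by 0.45 ± 0.11, and Myc did not pass the test, at 648 ± 47.4 and 626 ± 48.1 CPM.

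Cytokine and growth factor receptors rose more often than they fell: of 56 tested, 27 rose and 14 fell, with a median of 0.33. Beside the interleukin-33 receptor gene Il1rl1, those that rose included Fgfr1, for fibroblast growth factors (log2 fold change 5.34 ± 0.21, adjusted p = 1.41e-11), Il10ra (3.45), Il7r (3.44) and Axl, a receptor for GAS6 (3.08). Fgfr1 stood at 0.275, 0.333 and 0.180 CPM in the EMPTY libraries and 11.2, 10.3 and 11.4 CPM in the fusion libraries. Il6st, the shared signalling chain of the interleukin-6 family, was at 3.03, 2.11 and 2.40 CPM in the EMPTY libraries and 16.9, 17.2 and 13.3 CPM in the fusion libraries (log2 fold change 2.65 ± 0.19, adjusted p = 1.38e-08). Both were higher in all fusion libraries. The interleukin-1 family was divided, with the interleukin-33 receptor above and Il18r1 higher (2.40) while Il1r1 and the decoy receptor Il1r2 fell by 1.26 and 2.57. The TNF receptor genes Tnfrsf1a and Tnfrsf1b fell by 0.85 and 0.96, the interferon gamma receptor gene Ifngr1 by 1.04 and the VEGF receptor gene Flt1 by 2.65. In the TGF-beta family Tgfbr2 rose by 1.36 beside endoglin and Bmpr1a fell by 2.53.

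Innate recognition receptors moved in both directions, with 27 higher and 15 lower of 59 tested, and 17 higher when the fit used only the groups compared. The integrin subunit genes of complement receptor 3, Itgam and Itgb2, fell: Itgam, which encodes CD11b, stood at 27.1, 27.2 and 40.2 CPM in the EMPTY libraries and 5.76, 6.88 and 9.17 CPM in the fusion libraries (log2 fold change -2.11 ± 0.18, adjusted p = 1.33e-07), and Itgb2 fell by 0.63. The C3a receptor gene C3ar1 stood at 0.331, 0.167 and 0.300 CPM in the EMPTY libraries and 12.4, 12.8 and 11.9 CPM in the fusion libraries (log2 fold change 5.51 ± 0.17, adjusted p = 1.06e-12). The complement inhibitor gene Cd59a had a log2 fold change of 5.28. Itgam and C3ar1 thus changed in opposite directions without overlap. Tlr2, a receptor for bacterial lipoproteins, fell by 1.97 and Cd33, an inhibitory sialic acid receptor, by 1.39, whereas the paired inhibitory receptor genes Pirb and Lilrb4a rose by 1.77 and 2.04. Cd55, which protects cells from complement, had a log2 fold change of 9.07 that was 10.28 without EMPTY 1, at 0.165, 0.0556 and 0 CPM and 43.6, 43.4 and 46.4 CPM.

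Of 43 junction and adhesion genes 17 were higher and 7 lower. After Tjp1, the junction adhesion molecule gene F11r stood at 0.331, 0.167 and 0.240 CPM in the EMPTY libraries and 1.27, 1.49 and 1.83 CPM in the fusion libraries (log2 fold change 2.60 ± 0.33, adjusted p = 1.2e-05). Plakoglobin, a catenin of junctions encoded by Jup, was at 9.20, 9.61 and 9.89 CPM in the EMPTY libraries and 52.8, 49.9 and 53.8 CPM in the fusion libraries (log2 fold change 2.45 ± 0.08, adjusted p = 3.07e-12). L1cam rose by 1.97. Mdga1, a membrane-anchored immunoglobulin protein of neurons, stood at 32.7, 34.7 and 33.0 CPM in the EMPTY libraries and 509, 576 and 505 CPM in the fusion libraries (log2 fold change 3.99 ± 0.11, adjusted p = 4.12e-13). None of these 4 genes overlapped between the groups. Among the 7 that fell, the desmosomal gene Dsp had the lowest log2 fold change (-4.43 ± 0.94, and -7.48 without RUNX1-ETO_ONLY 1), with 1.49, 1.67 and 0.600 CPM in the EMPTY and 0.153, 0 and 0 CPM in the fusion libraries, a count ratio of EMPTY to fusion of 24.6 (95% counting interval 8.06 to 122). The others included Ncam1 (-4.17), the hyaluronan receptor Cd44 (-1.71) and E-cadherin, encoded by Cdh1 (-1.67). Cd44 stood at 237, 239 and 219 CPM in the EMPTY libraries and 76.4, 68.1 and 68.4 CPM in the fusion libraries. Of 20 integrin chains 9 rose and 6 fell; Itga9 and Itga4 rose by 3.8 and 0.56 and Itgb5 fell by 3.12. Semaphorins, plexins and neuropilins, the guidance family, had 13 of 21 members higher and 3 lower, among them Plxnc1 (-2.89 ± 0.24).

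Secreted cytokines, chemokines and growth factors mostly rose: of 53 tested, 31 rose and 7 fell, with a median of 1.30. Of the 95 listed genes 42 could not be tested. Genes such as Ccl7 and Bmp7, with no count in EMPTY, could be tested only through libraries of cells carrying the fusion. Such genes could only rise. Of 11 chemokine ligands 8 were higher, and 5 were higher when the fit used only the groups compared. Ccl3, which encodes a macrophage inflammatory protein, stood at 3.75, 4.89 and 7.68 CPM in the EMPTY libraries and 46.0, 47.4 and 50.4 CPM in the fusion libraries (log2 fold change 3.15 ± 0.19, adjusted p = 2.05e-09). Its neighbour Ccl4 was at 0.441, 0.111 and 0.360 CPM in the EMPTY libraries and 12.1, 12.2 and 13.8 CPM in the fusion libraries (log2 fold change 5.36 ± 0.28, adjusted p = 4.21e-10). Ccl2, the monocyte chemoattractant, had 0, 0 and 0.0600 CPM and 16.3, 16.1 and 18 CPM, a count ratio of 887 (95% counting interval 159 to 35052), and a fitted log2 fold change of 9.34, which was 11.22 without EMPTY 3. At all of them every fusion library was above every EMPTY library. Il6 rose by 5.95 ± 0.19, oncostatin M (Osm) by 1.93, M-CSF (Csf1) by 1.57, hepatocyte growth factor (Hgf) by 2.63 and the death ligand Tnfsf10 by 2.44. Tnfsf10 was 1 of 6 TNF superfamily ligands tested, all of which rose. Osteopontin (Spp1), vascular endothelial growth factor A (Vegfa) and the activin subunit gene Inhba fell by 4.07, 0.78 and 1.28.

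Matrix genes were evenly divided, with 14 higher, 14 lower and 16 not past of 44; 9 rose when the fit used only the groups compared. Thrombospondin 1, an adhesive glycoprotein encoded by Thbs1, stood at 1962, 2057 and 1189.7 CPM in the EMPTY libraries and 67.7, 66.3 and 61.1 CPM in the fusion libraries (log2 fold change -4.74 ± 0.21, adjusted p = 5.04e-11). The cross-linking enzyme Tgm2 and the protease inhibitor Serpine2 had log2 fold changes of -3.54 and -3.55. Thbs1 was many times lower in all 3 fusion libraries. The urokinase gene Plau rose by 1.88 while its receptor gene Plaur fell by 1.4, and the lysyl oxidase gene Loxl2 and the matrix protein gene Ecm1 rose by 3.33 and 4.14. Of 10 collagen chains 5 fell, and of 15 ADAM and ADAMTS proteases 9 rose.

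Among named genes whose log2 CPM averaged 3 or more the largest fall was that of Bace1, the beta-secretase gene, at 84.1, 81.0 and 63.1 CPM in the EMPTY libraries and 2.19, 2.11 and 1.31 CPM in the fusion libraries (log2 fold change -5.34 ± 0.24, adjusted p = 6.76e-11). The interferon-inducible membrane protein gene Ifitm1 stood at 261, 264 and 489 CPM in the EMPTY libraries and 12.9, 11.4 and 16.6 CPM in the fusion libraries (log2 fold change -4.64 ± 0.24, adjusted p = 3.3e-10). Tmem119, Xdh, which encodes xanthine dehydrogenase, and the protease inhibitor Slpi fell by 3.8, 3.39 and 3.97. Bace1 and Ifitm1 were lower in every fusion library, without overlap. Among the largest rises outside the lineage lists were the serpin gene Serpina3g, a member of a family of close copies (log2 fold change 5.60 ± 0.15, adjusted p = 4.1e-13), the adaptor gene Lat (4.16), the phosphodiesterase gene Pde3b (4.63), Fgf3 (4.41), and the synaptic genes Homer2 (4.56), Shank3 (3.94) and Camk2a (3.87).

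Genes of cytokine signalling rose on balance. Of 37 genes of the STAT5 and STAT3 list 23 rose and 8 fell, with a median of 0.78. The feedback inhibitor genes Cish and Socs1 rose, Cish from 8.87, 9.17 and 9.23 CPM to 67.3, 61.5 and 58.5 CPM (log2 fold change 2.78 ± 0.08, adjusted p = 4.45e-13) and Socs1 by 2.78, while Socs2, of the same family, fell from 3.47, 2.78 and 4.74 CPM to 1.12, 0.822 and 1.15 CPM (log2 fold change -1.82 ± 0.27, adjusted p = 6.81e-05). Neither Cish nor Socs2 overlapped between the groups. The kinase gene Pim2 rose by 2.26 and its paralog Pim1 did not pass, at 460.3 ± 24.8 and 460.4 ± 18.8 CPM. Stat5a, Stat5b and Stat3 themselves rose by 1.45, 0.91 and 0.62, and the ERK feedback genes Spry2 and Dusp6 fell by 0.72 and 0.61 while Dusp5 rose by 1.60.

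Inflammatory genes rose more often than they fell, and the NF-kB and inflammatory list had 22 of 33 genes higher and 2 lower and a median of 0.68. Among its regulators, Relb rose by 1.36 ± 0.16 and Nfkb1 by 0.39, while the inhibitor gene Nfkbia fell from 27.8, 25.1 and 35.0 CPM to 16, 13.7 and 18.2 CPM (log2 fold change -0.88 ± 0.14, adjusted p = 9.25e-05). The interferon list was split, with 10 higher, 4 lower and 13 not past of 27, and 6 higher when the fit used only the groups compared. Irf7 and Irf9 rose by 2.06 and 1.34 and the GTPase gene Gbp2 by 2.50, while Isg15 did not pass, with a log2 fold change of -0.48.

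**Figure D4:**
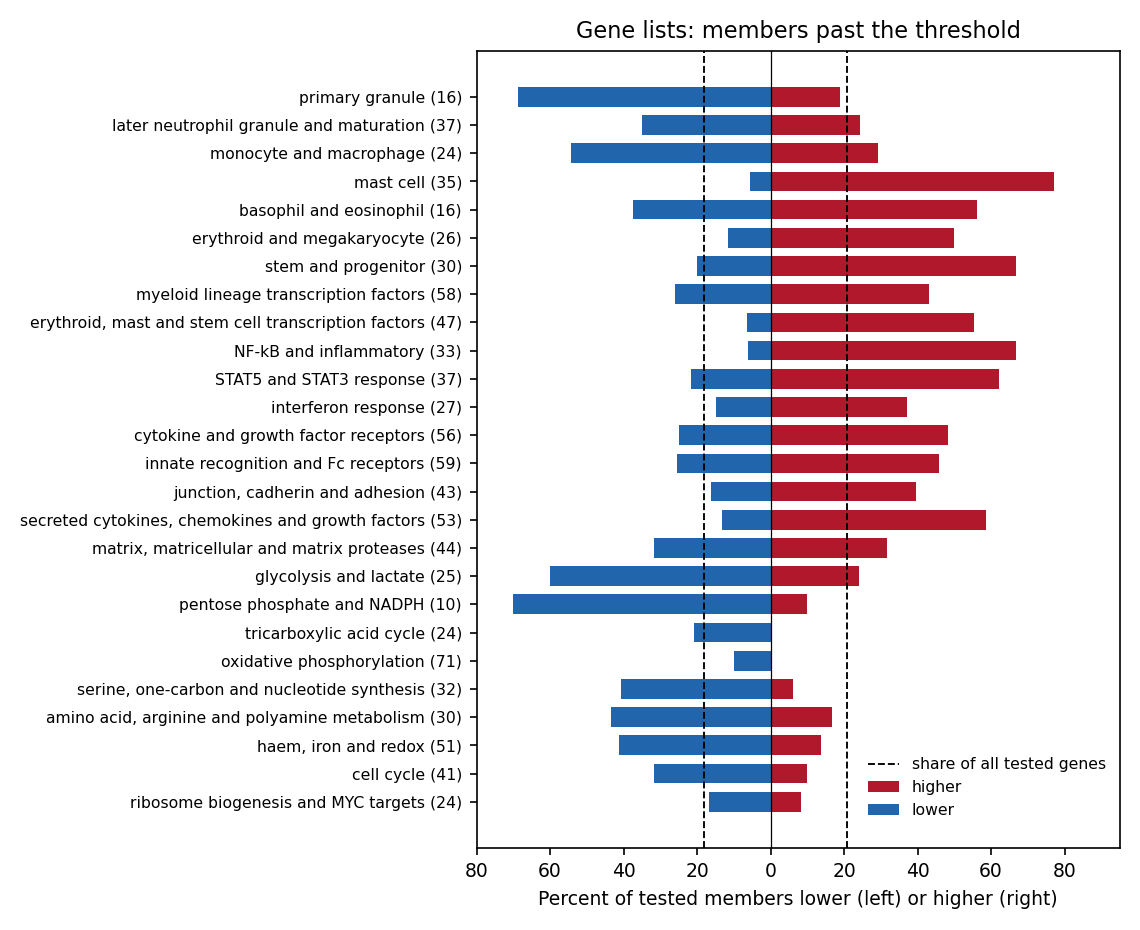
Percent of tested members higher (red) and lower (blue) with RUNX1-ETO for 26 gene lists; the dashed lines are the shares over all genes tested, 20.8% higher and 18.2% lower. The mast cell list had the highest share of members that rose, and the pentose phosphate and primary granule lists the highest shares that fell.

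Central carbon metabolism fell at its glycolytic end. Of 25 tested genes of glycolysis and lactate transport 15 fell and 6 rose, with a median of -0.28. Aldolase A (Aldoa), which splits fructose bisphosphate, stood at 3447, 3403 and 4965 CPM in the EMPTY libraries and 2122, 2070.2 and 2458 CPM in the fusion libraries (log2 fold change -0.83 ± 0.13, adjusted p = 0.000123). Pyruvate kinase M (Pkm) was at 3015, 2858 and 3307 CPM in the EMPTY libraries and 1701, 1754 and 1933 CPM in the fusion libraries (log2 fold change -0.77 ± 0.08, adjusted p = 2.18e-06). Gpi1, Eno1 and Pgk1 fell by 0.86, 0.74 and 0.47. At Aldoa and Pkm the fusion libraries were below all EMPTY libraries. The exceptions were isoforms and transporters, with phosphofructokinase M (Pfkm), hexokinase 1 (Hk1) and the sugar transporter gene Slc2a6 higher by 0.57, 0.40 and 1.42.

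The pentose phosphate pathway supplies NADPH and ribose. The list of its genes and of other NADPH genes had 7 of 10 tested members lower and 1 higher, with a median of -0.57. Phosphogluconate dehydrogenase (Pgd) stood at 574, 568 and 643 CPM in the EMPTY libraries and 305, 279 and 309 CPM in the fusion libraries (log2 fold change -1.0 ± 0.08, adjusted p = 4.04e-08). Glucose-6-phosphate dehydrogenase (G6pdx), the entry enzyme, fell by 0.63 ± 0.10. The member that rose lies outside the pathway itself. It was the cytosolic isocitrate dehydrogenase gene Idh1, from 179.9, 154 and 186 CPM to 478, 450.4 and 482 CPM (log2 fold change 1.44 ± 0.08, adjusted p = 3.95e-10). Pgd and Idh1 did not overlap between the groups. Of 24 tricarboxylic acid cycle genes 5 fell and 0 rose, and of 71 oxidative phosphorylation genes 7 fell and 0 rose. At an unadjusted p below 0.05 the edgeR test gave 0 and 0 higher and 7 and 11 lower. At an adjusted p below 0.05 DESeq2 called 0 and 1 higher, and limma-voom 1 and 2. The median of the oxidative phosphorylation genes was -0.16. The count of those that fell depended on single libraries: it was 14 with the replicate number as a block and only the groups compared, 11 without EMPTY 1, 14 without EMPTY 2, 4 without EMPTY 3 and 3 without RUNX1-ETO_ONLY 1 or 2. The cycle genes that fell numbered 8 with that block, 3 without EMPTY 1 or RUNX1-ETO_ONLY 1 and 2 without RUNX1-ETO_ONLY 2.

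**Figure D5:**
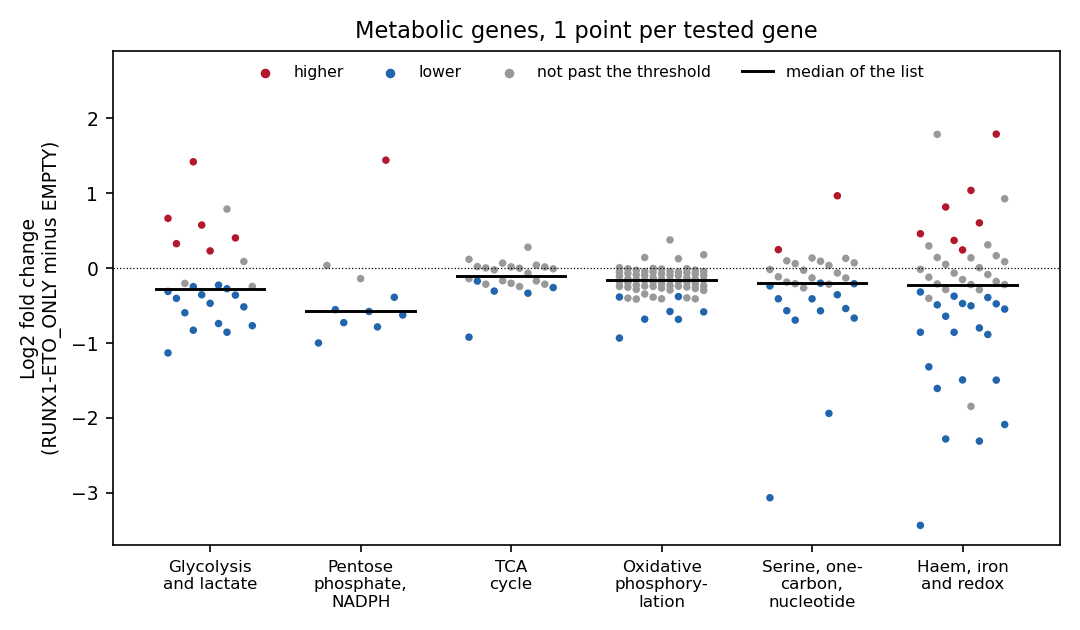
Log2 fold change of each tested gene in 6 metabolic lists; each point is a gene, red higher, blue lower, grey not past the threshold. Genes of the glycolysis list and of the pentose phosphate and NADPH list lie mostly below 0. Those of the tricarboxylic acid cycle and oxidative phosphorylation lie close to it.

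Iron, haem and redox genes fell in 21 of 51 cases and rose in 7, with a median of -0.22; the number that rose was 4 without EMPTY 2. Alas1, the first enzyme of haem synthesis outside the red cell line, stood at 1369, 1283 and 1224 CPM in the EMPTY libraries and 312, 301 and 299 CPM in the fusion libraries (log2 fold change -2.09 ± 0.07, adjusted p = 1.66e-12). The iron exporter gene Slc40a1 was at 3.64, 3.61 and 3.54 CPM in the EMPTY libraries and 0.459, 0.257 and 0.262 CPM in the fusion libraries (log2 fold change -3.43 ± 0.29, adjusted p = 1.02e-07). Both were lower in all fusion libraries. Of the phagocyte oxidase, which makes superoxide, Cyba, Ncf1 and Cybb fell by 1.49, 1.32 and 0.86. Glutathione reductase (Gsr) and the cystine transporter gene Slc7a11 fell by 1.49 and 1.61, while the quinone reductase gene Nqo1 rose by 1.79 ± 0.37.

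Lipid genes changed in both directions. Lipoprotein lipase (Lpl) stood at 0.331, 0.111 and 0.240 CPM in the EMPTY libraries and 7.55, 6.99 and 4.82 CPM in the fusion libraries (log2 fold change 4.79 ± 0.39, adjusted p = 7.49e-08). The triglyceride-forming enzyme genes Dgat1 and Dgat2 fell by 1.2 and 2.66. The cholesterol exporters Abcg1 and Abca1 rose by 2.01 and 1.04, and of 33 genes of cholesterol synthesis and transport 9 fell, among them Fdps (-1.01), and 5 fell without RUNX1-ETO_ONLY 1. Leukotriene A4 hydrolase (Lta4h), which makes leukotriene B4, stood at 629.5, 608 and 627 CPM in the EMPTY libraries and 160.1, 158 and 165 CPM in the fusion libraries (log2 fold change -1.95 ± 0.06, adjusted p = 1.63e-12), and thromboxane synthase (Tbxas1) fell by 1.77. The Lta4h libraries did not overlap between the groups, and Ltc4s, which makes the cysteinyl leukotrienes, moved the other way. Of 32 serine, one-carbon and nucleotide genes 13 fell, and 8 when the fit used only the groups compared; cystathionine gamma-lyase (Cth) fell by 3.06, Umps by 0.69 and Phgdh by 0.41, and thymidylate synthase (Tyms) rose by 0.96. Of 30 genes of amino acid, arginine and polyamine metabolism 13 fell and 5 rose, and 2 rose when the fit used only the groups compared. Hdc was among those that rose, and asparagine synthetase (Asns), the branched-chain aminotransferase gene Bcat1 and the nitric oxide synthase gene Nos2 fell by 0.95, 1.12 and 1.90.

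Of 41 cell cycle genes 13 fell and 4 rose, beside 39% of all tested genes called in either direction, and 8 fell when the fit used only the groups compared. Without RUNX1-ETO_ONLY 2, or with the replicate number as a block and only the groups compared, 2 rose. The cyclin genes Ccnd1 and Ccnd2 fell by 1.80 ± 0.27 and 1.30 ± 0.10, and Ccnd2 stood at 174, 159.7 and 147 CPM in the EMPTY libraries and 70.1, 69.4 and 55.9 CPM in the fusion libraries. The cell cycle inhibitor locus Cdkn2a rose, from 0.496, 0.500 and 0.180 CPM to 4.18, 4.78 and 4.35 CPM (log2 fold change 3.46 ± 0.28, adjusted p = 7.87e-08). Neither gene overlapped between the groups. The proliferation marker Mki67 did not pass, at 539 ± 246 and 542 ± 171 CPM. Of 28 apoptosis and p53 genes 10 rose, among them the survival gene Bcl2l1 (1.02) and the p53 target Zmat3 (1.44), and 5 fell, among them Bnip3 (-1.07). Of 82 cytosolic ribosomal protein genes 0 passed the test. At an unadjusted p below 0.05 the edgeR test gave 0 higher and 5 lower. At an adjusted p below 0.05 DESeq2 called 0 in either direction and limma-voom 4 higher. With the replicate number as a block 1 fell, and 12 with only the groups compared; 4 fell without EMPTY 2, 2 without RUNX1-ETO_ONLY 3 and 1 without RUNX1-ETO_ONLY 1, and 3 rose without EMPTY 3.

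Separate lists held genes described elsewhere as targets of the fusion. They were chosen from general knowledge but with earlier results of these data known, so their counts are not an independent check. Of 13 tested genes described as lowered, 7 fell (Elane, Cebpe, Mpo, Spi1, Cebpa, Ctsg and the cell cycle inhibitor gene Cdkn2d), 2 rose (the retinoic acid receptor gene Rara by 1.47 and Lat2 by 0.76) and 4 did not pass, among them Lyz2 and Csf1r. Of 8 described as raised, 4 rose, namely Cd34, Jup, Id1 (0.73) and Hes1, a Notch target with 0.0551, 0 and 0.120 CPM and 0.918, 0.411 and 1.31 CPM and a count ratio of 15.4 (95% counting interval 4.99 to 77.4); its fitted log2 fold change was 3.79, and 4.66 without EMPTY 3. Bcl2, the cell cycle inhibitor gene Cdkn1a, Pou4f1 and Ubash3b did not pass, with log2 fold changes of 0.09, -0.03, 0.77 and -0.03.

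The fusion alone was finally set beside the receptor allele alone in a direct test of RUNX1-ETO_ONLY against CSF3R_ONLY, which uses the same fusion libraries as the comparison above. Of the 13123 genes 2926 were higher with the fusion (22.3%) and 3117 lower (23.8%), and with library sizes alone 4139 and 2460. Mast cell genes were higher in 19 of 35 cases and lower in 10 (median 0.59). The summed level of the mast cell list averaged 3047 CPM in EMPTY, 14500 CPM with the fusion and 7479 CPM with the receptor allele. Most of the sum with the fusion was Cpa3, at 9090 to 9990 CPM in those libraries. The order of the sums therefore need not hold for the other members. Basophil and eosinophil genes were higher with the fusion in 5 of 16 cases and lower in 10 (median -1.04). Their sums averaged 2040, 3000 and 6686 CPM in the same order. Cpa3 stood at 1870.1, 1848 and 1794 CPM in the CSF3R_ONLY libraries (2.36 for fusion minus receptor allele, adjusted p = 1.11e-08), and Fcer1a at 19.1, 21.8 and 16.7 CPM, far above its level with the fusion (-5.40, adjusted p = 7.17e-11). Of 37 later neutrophil genes 36 were lower with the fusion than with the receptor allele and 1 was higher (median -3.38). Mpo, at 25469, 25552 and 25853 CPM with the receptor allele, differed by -0.49 (adjusted p = 0.000283), and Ngp, at 1730.0, 1675 and 1715 CPM, by -4.69 (adjusted p = 3.43e-12). Stem and progenitor genes were higher with the fusion in 18 of 30 cases and lower in 5. Eng, at 1.28, 1.10 and 0.807 CPM with the receptor allele, differed by 6.59 (adjusted p = 3.79e-14).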

How the data were processed

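Per the submitters' processing notes the reads were handled with Trimmomatic, STAR and DESeq2 on mm10; versions, the counting program, its annotation and its strand setting were not stated in the sources used here. The authors deposited raw counts per gene for 15 libraries, and the row that names no gene, 0.0179 to 0.0305% of counts, was left out. Total counts were 17007437 to 18178292 in the 6 libraries compared, and intervals and floors cover counting error only. Counts were tested with the robust quasi-likelihood F test of edgeR 4.0.16 (R 4.3.3), two-sided, with TMM factors, the low-count filter by group, all 15 libraries in 5 groups (10 residual degrees of freedom) and Benjamini-Hochberg adjustment over 13123 genes. A fold against a group at 0 uses a floor of 3 counts per library, and the method was tested on simulated data. DESeq2 1.42.0, limma 3.58.1, other scalings, other filters and left-out libraries were alternatives. Same-numbered libraries deviated together (r = 0.284, 0.283 and 0.455, against -0.357 to 0.138 for other pairs), so the numbers were taken to pair them and a block was an alternative. Exonic lengths came from GENCODE M21, matched for 13006 tested genes, and promoter windows from RefSeq, matched for 9785.

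The comparison, the 36 gene lists and the tests were chosen with earlier results of these data known. Named genes are Runx1 and Runx1t1, the 20 largest rises and falls averaging log2 CPM 3 or more without overlap, up to 5 rises, 5 falls and 3 abundant uncalled members of each list or family, all members of lists with at most 8, the chromosome 14 proteases and the cell type markers. Alox5, Angpt1, Axl, Ccl3, Cd33, Cd68, Cdkn2d, Cebpb, Cish, Csf1, Csf2rb, Csf3r, Cyba, Cybb, Egr2, Epor, F11r, Fcgr1, Fcgr3, Gfi1, Gsr, H2-Q6, Hdac1, Hdac3, Hgf, Hlf, Ifngr1, Ikzf2, Il10ra, Il18r1, Il1r1, Il3ra, Il6st, Isg15, Itga4, L1cam, Ldb1, Lilrb4a, Mitf, Ms4a3, Ncf1, Ndst2, Nfkb1, Nkg7, Osm, Padi4, Pgk1, Phgdh, Pim2, Pirb, Plau, Plaur, Procr, Prss28, Prtn3, Rab27b, Relb, Runx2, Sin3a, Slc18a2, Spry2, Stat3, Stat5a, Stat5b, Tal1, Tgfbr2, Tie1, Tpsg1 and Zfpm1 were named after their values were seen. Some genes are not reported here.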

Additional observations from a re-analysis of the deposited data

How the results depend on the processing

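The number of genes higher with the fusion, 2724, was 1734 when the fit used only the groups compared, and the number lower, 2393, was 1654. Other settings gave 2471 to 3268 higher and 1997 to 2870 lower, and leaving out 1 library 2327 to 2741 higher and 1917 to 2526 lower. Library sizes alone gave 3268 higher and 1997 lower and moved the median log2 fold change of all genes to 0.09. Against CSF3R_ONLY, leaving out 1 library gave 2475 to 2653 higher and 2778 to 2986 lower, beside 2926 and 3117 with all libraries, and library sizes alone gave 4139 and 2460. With the replicate number as a block, which pairs same-numbered libraries, 2809 genes were higher and 2453 lower, and with the block and only the groups compared, a setting chosen after seeing the data, 2781 and 2717. The block left the calls of the genes named in the text as they were, apart from Fcer1g, which passed. No named gene that passed the test in the main fit or under a setting changed direction between them. Changes of sign in genes that passed in neither were not counted.

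Genes with a few counts in the EMPTY libraries are limited by depth: their ratios span wide counting intervals, and a level below 3 counts per library was not detectable. With 3 libraries per group and no record of separate cultures, the errors describe these libraries.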
